A study of Homo sapiens with 12 samples.

Results

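The libraries in which BRPF1 was silenced in docetaxel-resistant prostate cancer cells were analysed: 3 libraries treated with an siRNA against BRPF1 (siBRPF1) and 3 treated with a control siRNA (siControl), which are 6 of the 12 libraries of the series. They were chosen by treatment, from the labels, and no measured value entered the choice. All 6 came from Du145-DtxR, a docetaxel-resistant subline of Du145, an established human prostate cancer cell line. The line had been selected in docetaxel, in exposures of 72 h at doses that began at 1 nM and doubled until 125 nM was reached, so both siRNA groups carried the same selection history. Cells were plated at 170000 per well, kept with the siRNA for 24 h and then in fresh medium, and RNA was taken 48 h after the medium change. The other 6 libraries were Du145-DtxR, Du145-CbzR (selected in cabazitaxel) and the parental Du145-P, 2 each, with no siRNA. Resistance is represented by 1 derived line. The methods call the replicates biological but do not say how their cultures were separated, so p-values here measure the spread between these libraries. The siRNA sequences are not given in the sources used here, and the number of independent siRNAs against BRPF1 is likewise not given, so effects of losing BRPF1 and other effects of the siRNA cannot be told apart.

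BRPF1 is a scaffold protein with a bromodomain, a PWWP domain and PHD fingers that read histone marks. It holds the acetyltransferases KAT6A, KAT6B or KAT7 together with ING4 or ING5 and MEAF6 in a complex that acetylates histone H3, and its paralogs BRD1 (BRPF2) and BRPF3 build related complexes. Taxanes stabilise microtubules, and their best known route of resistance is efflux by the transporter P-glycoprotein, the product of ABCB1. The comparison addresses which transcripts change in resistant cells when BRPF1 is silenced.

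Read depth was even across the siRNA libraries, at 16667822 to 17306275 estimated counts each, with 22060 to 22537 genes above 0. Mitochondrially encoded transcripts took 11.41% to 15.15% of the counts with siBRPF1 and 13.47% to 16.6% with siControl, ranges that overlap. On a log2 scale, libraries of the same group differed with an SD over genes of 0.336 to 0.404, and libraries of different groups with an SD of 0.484 to 0.573. The first principal component, with 51.8% of the variance, separated siBRPF1 from siControl. The second, with 20%, held replicate 3 of both groups at its negative end. Epithelial keratins KRT8 and KRT18 were abundant. KRT8 was at 566, 612 and 503 CPM (counts scaled to a common library size, with TMM factors) with siBRPF1, against 522, 458 and 406 CPM with siControl, and EPCAM, an epithelial adhesion molecule, was between 8.15 and 9.57 CPM in the 6 libraries. The prostate genes KLK2, TMPRSS2 and FOLH1 were at 0 in all 6, and KLK3 had 1 count in all. Of the leukocyte markers, PTPRC and CD3E were at 0 in every library and CD68, a lysosomal protein not restricted to leukocytes, gave nearly the whole summed level of 110 to 144 CPM with siBRPF1 and 114 to 149 CPM with siControl. Summed fibroblast markers reached 7.50 to 8.67 CPM with siBRPF1 and 9.05 to 10.9 CPM with siControl, of which COL1A1 gave most and LUM was at 0. Endothelial markers summed to at most 0.344 CPM with siBRPF1 and 0.821 CPM with siControl, and neuroendocrine markers, with INSM1 and NEUROD1 at 0, to at most 3.41 CPM with siBRPF1 and 3.99 CPM with siControl. In bulk RNA, fewer cells of a kind and less RNA per cell cannot be told apart.

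The targeted transcript was lower in every siBRPF1 library. BRPF1 (chromosome 3, 9731729 to 9748019 on GRCh38) was at 8.96, 8.67 and 8.19 CPM in siBRPF1 libraries, against 29.4, 30.6 and 30.96 CPM in siControl libraries. The 3 knockdown libraries lay together and far below all 3 controls. The mean of 8.61 ± 0.386 CPM with siBRPF1 was 28.4% of the 30.3 ± 0.813 CPM with siControl (SD, n = 3 each). In edgeR's quasi-likelihood test, with Benjamini-Hochberg adjustment over the 15704 genes tested, this was a log2 fold change of -1.82 (SE 0.10, 95% interval -2.03 to -1.61, adjusted p = 1.79e-06).

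**Figure D1:**
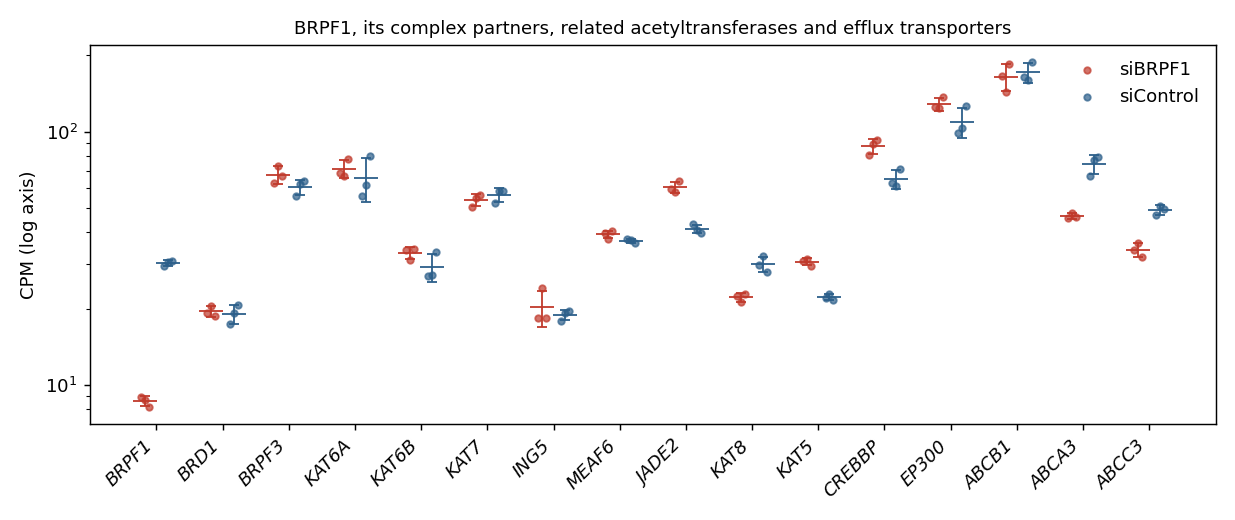
Normalised counts (CPM) on a log axis for BRPF1, its complex partners, related acetyltransferases and 3 efflux transporters. Points are the 3 libraries of each group, siBRPF1 left of siControl, and bars are the mean ± SD. BRPF1 falls to between 8.19 and 8.96 CPM with siBRPF1, while ABCB1 overlaps between the groups.

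Loss of the BRPF1 transcript was not accompanied by a called change in its paralogs or in the enzymes it scaffolds. Of the 16 genes of the BRPF and MYST acetyltransferase list, all tested, 3 rose and 2 fell, BRPF1 among them, against 26.7% of all genes tested that were called in either direction (6 rose without siControl replicate 3). BRD1 was at 19.3, 20.5 and 18.7 CPM in siBRPF1 libraries, against 17.4, 19.1 and 20.6 CPM in siControl libraries, and the groups overlapped (log2 fold change 0.03, SE 0.10, adjusted p = 0.843). BRPF3 was at 62.5, 73.2 and 66.6 CPM with siBRPF1, against 55.7, 61.9 and 63.6 CPM with siControl, again overlapping (log2 fold change 0.16, SE 0.09, adjusted p = 0.227). KAT6A, KAT6B, KAT7, ING4, ING5 and MEAF6 had log2 fold changes between -0.07 and 0.18, and none passed the test. JADE1 (-0.05) and JADE3 (-0.24) also did not. JADE2, one of the JADE scaffolds that recruit KAT7 in place of a BRPF protein, rose to 59.2, 57.6 and 63.7 CPM with siBRPF1, against 43.1, 40.9 and 39.9 CPM with siControl (log2 fold change 0.54, SE 0.08, adjusted p = 9.68e-04). All 3 knockdown libraries were above all 3 controls. Outside these complexes, KAT5, the TIP60 acetyltransferase, rose by 0.47 on the log2 scale and CREBBP, a general coactivator, by 0.43, while KAT8, which acetylates histone H4 at lysine 16, fell to 22.4, 21.2 and 22.8 CPM with siBRPF1, against 29.7, 32.1 and 27.9 CPM with siControl (log2 fold change -0.43, SE 0.09, adjusted p = 0.00593). EP300 had a log2 fold change of 0.23 and was not called (adjusted p = 0.12).

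ABCB1, the efflux pump at the centre of the resistance comparison, did not differ by more than the spread between libraries. It was at 167, 143 and 185 CPM in siBRPF1 libraries, against 165, 160.3 and 189 CPM in siControl libraries. Neither group was high or low as a whole, and the ranges overlapped. The log2 fold change was -0.06 (SE 0.10, 95% interval -0.29 to 0.17, adjusted p = 0.725), so a fall of the transcript by more than 0.29 on the log2 scale lies outside that interval. Without siBRPF1 replicate 2 the value was 0.05 and without siControl replicate 3 it was 0.02, and in neither was it called. Of the 11 efflux transporters tested, 2 fell (18.2%) and none rose, beside 15.1% and 11.6% of all genes tested, so the share that fell was near the background. ABCA3, a lipid transporter, fell to 45.4, 47.8 and 46.1 CPM with siBRPF1, against 66.8, 77.3 and 79.3 CPM with siControl (log2 fold change -0.68, SE 0.09, adjusted p = 4.06e-04), and ABCC3, an organic anion exporter of the MRP group, to 34.1, 36.2 and 32.1 CPM with siBRPF1, against 46.8, 50.9 and 49.5 CPM with siControl (log2 fold change -0.52, SE 0.09, adjusted p = 0.00147). In both genes every knockdown library lay below every control. ABCG2, the breast cancer resistance protein, averaged 3.81 ± 0.213 CPM with siBRPF1 and 4.50 ± 0.171 CPM with siControl (SD, n = 3 each) and was not called (adjusted p = 0.248), nor was ABCC1 (log2 fold change -0.14). The median over the 11 was -0.13, beside -0.01 over all genes tested. ABCB4 was too low to be tested. In the resistance libraries, normalised separately, ABCB1 was at 454 ± 0.268 CPM in Du145-DtxR and 0.346 ± 0.168 CPM in Du145-P (SD, n = 2 each).

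Among all genes tested, 1820 rose (11.6%) and 2369 fell (15.1%) at an adjusted p under 0.05, and the counts in each gene list stand beside these shares, since a list near them shows nothing about its members. The lists were chosen with earlier results of these data known, so their counts are descriptive. With the study's threshold of a log2 fold change beyond 1 added, 77 genes rose (0.490%) and 524 fell (3.34%), and these are called DEGs. The groups did not overlap in 6623 genes (42.2%). Counts at the adjusted p alone were smaller without siControl replicate 2 (974 higher, 1468 lower) and without siBRPF1 replicate 1 (935 higher, 1515 lower). The excess of falls lay mostly in weakly expressed genes. Among genes with a mean under 5 CPM, 139 rose and 642 fell, whereas at 20 to 100 CPM 951 rose and 797 fell, and of the 524 DEGs that fell, 379 had a mean under 5 CPM. Falls also went with GC content: in the sixth of genes with the highest GC of the longest transcript (59.3% or more) 210 rose and 609 fell, and in the lowest sixth (up to 40.1%) 347 rose and 235 fell. Libraries of 1 group differed in this too, with median deviations in the highest sixth of -0.06, 0.06 and -0.14 in siBRPF1 libraries and 0.10, 0.12 and -0.05 in siControl libraries on the log2 scale. With per-library GC offsets, an alternative added after seeing the data, 2631 genes rose and 2749 fell. Of the 282 genes for which alternatives were computed, none lost its call with these offsets and 6 gained one.

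**Figure D2:**
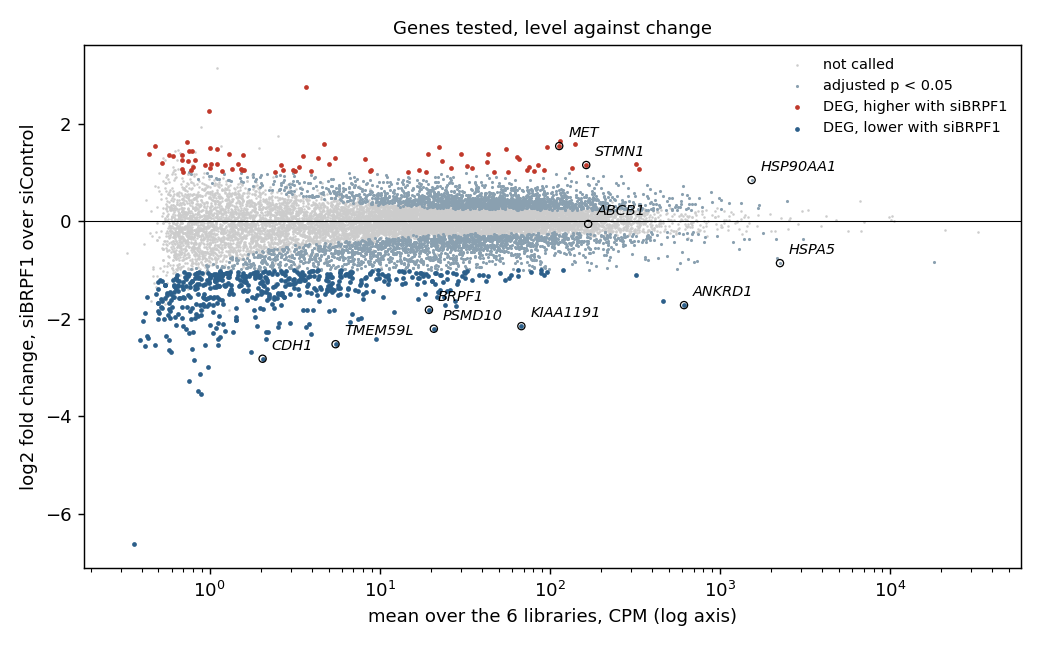
Log2 fold change of siBRPF1 over siControl against the mean over the 6 libraries in CPM, on a log axis, for the 15704 genes tested. Of the coloured points, 77 DEGs lie above 1 and 524 below -1, and those below are densest at low levels, while ABCB1 lies at -0.06.

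The 15 largest falls among DEGs of at least 5 CPM ran from -1.82 to -2.52 on the log2 scale. All but UMAD1 and PSMD10 had higher means with siControl than in Du145-DtxR without siRNA, from the other experiment. The gap was small in SLC16A9 (5.86 against 5.67 CPM). LGR6 averaged 6.60 CPM with siControl, 1.32 with siBRPF1 and 1.16 without siRNA. UMAD1 averaged 16.1, 3.02 and 22.4 CPM in that order. Because the siRNA experiment held no library without siRNA, a fall with siBRPF1 and a rise with siControl cannot be told apart. 13 of the 15 were protein-coding. Several were surface receptors. LGR6, a receptor for R-spondins that raises Wnt signalling, fell to 1.32, 1.14 and 1.49 CPM with siBRPF1, against 6.74, 7.26 and 5.80 CPM with siControl (log2 fold change -2.32, SE 0.18, adjusted p = 1.75e-05). NGFR, the p75 neurotrophin receptor, fell to 2.30, 2.57 and 2.23 CPM with siBRPF1, against 6.80, 9.57 and 8.74 CPM with siControl (log2 fold change -1.82, SE 0.17, adjusted p = 5.88e-05). UNC5A, a netrin receptor that can trigger cell death without its ligand, fell to 3.16, 2.99 and 3.27 CPM with siBRPF1, against 10.8, 12.5 and 13.7 CPM with siControl (log2 fold change -1.97, SE 0.14, adjusted p = 1.40e-05). That the highest knockdown library was under the lowest control in all 3 genes follows from the rule that chose them. PCDH1, a protocadherin of cell contacts, fell by 2.10 on the log2 scale.

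Other large falls concerned single enzymes, transporters and protein quality control. PSMD10 (gankyrin) is an assembly chaperone of the proteasome's regulatory particle, and it fell to 7.29, 6.58 and 8.36 CPM with siBRPF1, against 34.8, 34.4 and 33.4 CPM with siControl (log2 fold change -2.20, SE 0.11, adjusted p = 1.38e-06). SLC2A4, the insulin-responsive glucose transporter GLUT4, was at 1.44, 1.32 and 1.26 CPM in siBRPF1 libraries, against 4.49, 7.09 and 6.57 CPM in siControl libraries (log2 fold change -2.17, SE 0.22, adjusted p = 7.71e-05). The groups were apart in both, which the rule required. PADI2, which converts arginine to citrulline in proteins including histones, had a log2 fold change of -2.06, PIGZ, a mannosyltransferase of GPI anchor synthesis, one of -1.91, and SERPINI1, the protease inhibitor neuroserpin, one of -1.85. SLC16A9, of the monocarboxylate transporter family, changed by -1.83. Of genes whose products are less well described, KIAA1191 fell to 25.3, 22.7 and 27.04 CPM with siBRPF1, against 115, 107 and 111 CPM with siControl (log2 fold change -2.15, SE 0.09, adjusted p = 1.01e-06), and UMAD1 to 3.10, 3.05 and 2.92 CPM with siBRPF1, against 15.9, 15.6 and 16.7 CPM with siControl (log2 fold change -2.41, SE 0.12, adjusted p = 1.38e-06). Replicates of each group stood close together in both. TMEM59L had the largest fall of the 15 on the log2 scale (-2.52), with 1.63 ± 0.519 CPM with siBRPF1 and 9.37 ± 1.51 CPM with siControl (SD, n = 3 each). The long non-coding RNAs MAP4K3-DT (-2.01) and LINC02381 (-1.84) complete the 15. MAP4K3-DT lies head to head with MAP4K3, and the sources do not say that counting used strand.

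The 15 largest rises, taken by the same rule, were smaller, from 1.24 to 1.64 on the log2 scale. All but DOK3 and MT1M had lower means with siControl than in Du145-DtxR without siRNA, from the other experiment. MET averaged 58.0 CPM with siControl, 169 with siBRPF1 and 177 without siRNA. DDX3Y averaged 55.7, 174 and 177 CPM in that order. No library of the siRNA experiment lacked siRNA, so a rise with siBRPF1 and a fall with siControl cannot be told apart. MET, the receptor tyrosine kinase for hepatocyte growth factor, rose to 168, 146 and 193 CPM with siBRPF1, against 48.1, 54.3 and 71.7 CPM with siControl (log2 fold change 1.54, SE 0.15, adjusted p = 6.09e-05). Every knockdown library was above every control by more than the range within either group. IGFBPL1, an insulin-like growth factor binding protein relative, rose to 144, 145 and 142 CPM with siBRPF1, against 50.3, 51.1 and 48.1 CPM with siControl (log2 fold change 1.53, SE 0.08, adjusted p = 1.38e-06). PPP2R1B, a scaffold subunit of protein phosphatase 2A, rose to 86.3, 70.1 and 86.7 CPM with siBRPF1, against 28.6, 26.3 and 31.8 CPM with siControl (log2 fold change 1.49, SE 0.11, adjusted p = 1.51e-05). That no control library reached a knockdown library in these 3 genes was required by the rule. ZMPSTE24, the protease that matures prelamin A, changed by 1.38, PTPMT1, a mitochondrial phosphatase of cardiolipin synthesis, by 1.38, and MSRB3, which reduces oxidised methionine, by 1.27. BOD1, needed for chromosome alignment in mitosis, changed by 1.24 and PLEKHG4, a guanine nucleotide exchange factor, by 1.32. The adaptor DOK3 (1.59), TAPT1 (1.51), SUSD1 (1.38) and the DEAD-box helicase DDX3Y (1.64) also rose. The metallothionein MT1M (1.30) and FRG1 (1.27) belong to families of near-identical copies, so their reads may be split. MT-ATP8 was far higher in 1 library than in the rest, with 106, 435 and 86.6 CPM with siBRPF1, against 83.96, 63 and 63.97 CPM with siControl (log2 fold change 1.57, SE 0.48, adjusted p = 0.0325). It overlaps MT-ATP6, and it was no longer called with DESeq2, or in edgeR without siControl replicate 1 or siControl replicate 2.

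When unfolded proteins accumulate in the endoplasmic reticulum (ER), the sensors ERN1 (IRE1), EIF2AK3 (PERK) and ATF6 raise chaperones and degradation factors through XBP1, ATF6 and ATF4. Of the 28 ER chaperone and ER-associated degradation genes, all tested, 17 fell and 1 rose, against 15.1% and 11.6% of all genes, with a median of -0.24. The falls numbered 12 or 13 when any 1 library other than siControl replicate 3 was left out, 13 with no filter and 10 at an adjusted p under 0.01. HSPA5 (BiP), the main ER chaperone and sensor regulator, was at 1651, 1495 and 1660.4 CPM in siBRPF1 libraries, against 2874, 2855 and 2984 CPM in siControl libraries (log2 fold change -0.86, SE 0.08, adjusted p = 4.04e-05). Its co-chaperone HYOU1 was at 488, 516 and 502 CPM in siBRPF1 libraries, against 921, 892 and 875 CPM in siControl libraries (log2 fold change -0.84, SE 0.07, adjusted p = 3.43e-05). The groups were far apart in both, with every siBRPF1 library below every control. EDEM1, which directs misfolded glycoproteins to degradation, was at 35.5, 35.9 and 41.1 CPM in siBRPF1 libraries, against 77.03, 73.5 and 91.9 CPM in siControl libraries (log2 fold change -1.11, SE 0.11, adjusted p = 6.19e-05), and HERPUD1, a component of the degradation complex, at 98, 90.5 and 99.96 CPM with siBRPF1, against 154, 157 and 149 CPM with siControl (log2 fold change -0.67, SE 0.08, adjusted p = 2.02e-04). ERN1 itself fell to 19.5, 19.1 and 21.6 CPM with siBRPF1, against 29.2, 37.6 and 42.6 CPM with siControl (log2 fold change -0.86, SE 0.13, adjusted p = 9.12e-04). Again no knockdown library reached the lowest control. SDF2L1 (-0.58), MANF (-0.54), DNAJB9 (-0.45) and SYVN1 (-0.45) fell as well, whereas PDIA4, a disulfide isomerase, rose by 0.34, a call lost without siBRPF1 replicate 1. XBP1 (-0.23) fell, but was not called when any of several single libraries was left out. ATF6 (-0.16), EIF2AK3 (-0.02) and CANX (0.00) were not called.

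Promoters of this list are shown because many of its members fell and some hold a known element. A match is a description, not proof of a site. The ER stress response element, searched on both strands as CCAAT and CCACG with 9 bases between them, is bound by NF-Y and ATF6 and was present in 0.0769% of 35116 RefSeq promoter windows (GRCh38.p14, 250 bases before to 50 after a start). Of the 25 members with a window, 8 held it in at least 1 window, as did 0.142% of the 11289 tested genes with a window. Of those 8, 6 fell and none rose, and of the 17 without it, 9 fell and 1 rose. The 250 bases before the start are printed 5′ to 3′ on the gene's strand for HSPA5 (chr9:125241344-125241593, minus strand), HSP90B1 (chr12:103930160-103930409, plus strand), the GRP94 chaperone with a log2 fold change of -0.43, and CRELD2 (chr22:49918384-49918633, plus strand), a disulfide isomerase with one of -0.44. Capitals mark each match on either strand.
HSPA5: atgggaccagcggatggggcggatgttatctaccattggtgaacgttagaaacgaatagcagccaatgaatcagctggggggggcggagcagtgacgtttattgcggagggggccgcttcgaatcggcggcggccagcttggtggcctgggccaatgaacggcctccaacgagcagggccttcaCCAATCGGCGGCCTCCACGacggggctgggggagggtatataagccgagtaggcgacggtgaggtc
HSP90B1: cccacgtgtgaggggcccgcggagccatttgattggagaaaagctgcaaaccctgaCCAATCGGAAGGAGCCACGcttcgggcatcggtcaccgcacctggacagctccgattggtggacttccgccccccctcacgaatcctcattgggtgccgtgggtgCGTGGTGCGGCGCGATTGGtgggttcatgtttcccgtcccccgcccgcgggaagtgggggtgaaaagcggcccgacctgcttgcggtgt
CRELD2: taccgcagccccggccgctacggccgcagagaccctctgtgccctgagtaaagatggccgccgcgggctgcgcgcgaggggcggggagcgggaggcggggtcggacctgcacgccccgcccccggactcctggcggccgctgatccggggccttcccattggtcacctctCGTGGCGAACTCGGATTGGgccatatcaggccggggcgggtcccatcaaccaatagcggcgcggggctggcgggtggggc
The match in HSPA5 ended 47 bases before the start, on the gene's strand, and the one in CRELD2 61 bases before it, on the opposite strand. HSP90B1 held a pair, 1 on each strand.

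The amino acid response driven by ATF4, the transcription factor translated when eIF2-alpha is phosphorylated, fell in part. Of 32 genes tested, 15 fell and none rose, with a median of -0.23. Without siControl replicate 2 the count that fell was 9. ATF4 was at 285, 263 and 254 CPM in siBRPF1 libraries, against 484, 484 and 408 CPM in siControl libraries (log2 fold change -0.78, SE 0.09, adjusted p = 2.01e-04). DDIT4 (REDD1), an inhibitor of mTORC1, was at 56.8, 57.8 and 58.4 CPM in siBRPF1 libraries, against 108, 138 and 115 CPM in siControl libraries (log2 fold change -1.06, SE 0.10, adjusted p = 5.40e-05), and TRIB3, a pseudokinase that restrains AKT, at 64.5, 70.7 and 59.6 CPM with siBRPF1, against 126, 127 and 115 CPM with siControl (log2 fold change -0.91, SE 0.09, adjusted p = 7.02e-05). In each of these genes the 3 knockdown libraries were all below the controls. ASNS, asparagine synthetase, fell to 119.6, 115 and 114 CPM with siBRPF1, against 179, 189 and 179 CPM with siControl (log2 fold change -0.65, SE 0.07, adjusted p = 1.85e-04), and CHAC1, which degrades glutathione, to 23.9, 27.03 and 20.8 CPM with siBRPF1, against 46.6, 42.2 and 39.1 CPM with siControl (log2 fold change -0.83, SE 0.11, adjusted p = 4.36e-04). GDF15, a secreted stress cytokine, had the largest fall of the list (-1.56, chosen after its value was seen), with 1.13 ± 0.164 CPM with siBRPF1 and 3.34 ± 0.630 CPM with siControl (SD, n = 3 each). DDIT3 (CHOP, -0.55), PYCR1 of proline synthesis (-0.73) and CTH of cysteine synthesis (-0.63) fell, while PHGDH (-0.16), SHMT2 (-0.01), SLC7A11 (-0.06) and PPP1R15A (0.03) were not called. Among 20 cytosolic aminoacyl-tRNA synthetases, several of which ATF4 also drives, 5 fell and 1 rose. WARS1 fell to 127, 120.5 and 124 CPM with siBRPF1, against 174, 165 and 154 CPM with siControl, and TARS1 rose to 597, 556 and 599 CPM with siBRPF1, against 446, 397 and 419 CPM with siControl. Without siControl replicate 2, or without siBRPF1 replicate 1, the synthetases that fell numbered 1, and without siBRPF1 replicate 3 they numbered 3.

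A core of the CARE element through which ATF4 acts, searched as TGATGNAA on both strands, was present in 3.62% of all promoter windows. It was held by 8 of the 27 list members with a window and by 2.63% of tested genes with one. Of those 8, 5 fell, and 9 of the members without it fell. The upstream sequences of ASNS (chr7:97872409-97872658, minus strand, 1 of 2 windows of the gene) and CHAC1 (chr15:40953221-40953470, plus strand) are shown with the match in capitals.
ASNS: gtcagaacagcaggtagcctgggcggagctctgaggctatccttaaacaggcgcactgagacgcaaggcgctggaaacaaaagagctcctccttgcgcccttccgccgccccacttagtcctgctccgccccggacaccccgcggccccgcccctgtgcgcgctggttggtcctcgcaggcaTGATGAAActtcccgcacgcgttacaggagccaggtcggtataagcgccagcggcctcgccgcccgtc
CHAC1: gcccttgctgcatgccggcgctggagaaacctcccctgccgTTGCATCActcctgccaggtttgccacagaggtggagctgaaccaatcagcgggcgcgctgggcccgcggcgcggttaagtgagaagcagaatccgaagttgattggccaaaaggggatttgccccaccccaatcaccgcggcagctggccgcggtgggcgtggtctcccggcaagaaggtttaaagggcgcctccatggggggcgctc
The match lay on the gene's strand in ASNS and on the opposite strand in CHAC1, ending 60 and 201 bases before the start in that order.

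Of 15 heat shock response genes tested, which encode mostly cytosolic chaperones, 8 rose, none fell and 7 were not called, with a median of 0.28 (4 rose without siControl replicate 2, and 4 without siBRPF1 replicate 1). HSP90AA1, the inducible HSP90, was at 1955, 1895 and 2067 CPM in siBRPF1 libraries, against 1222, 996 and 1073 CPM in siControl libraries (log2 fold change 0.85, SE 0.09, adjusted p = 1.15e-04). DNAJA1, an HSP40 co-chaperone, was at 218, 209 and 210.3 CPM in siBRPF1 libraries, against 140.4, 114 and 120.5 CPM in siControl libraries (log2 fold change 0.77, SE 0.09, adjusted p = 2.18e-04), and HSPA8, the constitutive HSP70, at 1910.4, 1898 and 1901 CPM with siBRPF1, against 1622, 1476 and 1414 CPM with siControl (log2 fold change 0.34, SE 0.08, adjusted p = 0.00843). The groups were apart in all 3, by the smallest fold in HSPA8. HSPA1A (0.53) and HSPA1B (0.40) also rose, but they are near-identical copies. HSPA1A was no longer called without siControl replicate 2, HSPA1B without siBRPF1 replicate 1, and DNAJB1 (0.28) without that library or siControl replicate 2.

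Heat shock elements, bound by HSF1 and searched on both strands as GAA, TTC and GAA with 2 bases between neighbours, were found in 0.490% of promoter windows and in 0.514% of tested genes with a window. Of the 14 list members with a window, 5 held one, of which 3 rose, and 5 of the members without one rose. HSP90AA1 (chr14:102087045-102087294, minus strand, 1 of 2 windows) and HSPA8 (chr11:123062137-123062386, minus strand) are shown.
HSP90AA1: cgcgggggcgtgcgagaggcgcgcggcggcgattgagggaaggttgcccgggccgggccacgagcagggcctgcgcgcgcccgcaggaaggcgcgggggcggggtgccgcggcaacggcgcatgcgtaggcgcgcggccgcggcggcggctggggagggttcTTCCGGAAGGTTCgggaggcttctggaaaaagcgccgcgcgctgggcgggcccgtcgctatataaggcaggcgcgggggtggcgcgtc
HSPA8: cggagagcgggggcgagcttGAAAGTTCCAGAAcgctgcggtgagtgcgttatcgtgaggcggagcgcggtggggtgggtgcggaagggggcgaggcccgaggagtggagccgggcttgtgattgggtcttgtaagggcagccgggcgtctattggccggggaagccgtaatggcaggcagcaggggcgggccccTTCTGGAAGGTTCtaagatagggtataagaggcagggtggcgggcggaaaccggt
HSP90AA1 held 1 match upstream, 75 bases before the start, and HSPA8 2.

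The proteasome degrades ubiquitinated proteins, with a catalytic core (PSMA and PSMB subunits) capped by a regulatory particle (PSMC ATPases and PSMD subunits). All 32 subunits tested had a log2 fold change above 0, 24 rose at the threshold and none fell, with a median of 0.32. The count called was 12 without siControl replicate 2, 9 without siBRPF1 replicate 1 and 15 without siBRPF1 replicate 2, and 15 with upper-quartile scaling. PSMA4 was at 124, 110.4 and 120.4 CPM in siBRPF1 libraries, against 77.8, 69.7 and 68.1 CPM in siControl libraries (log2 fold change 0.72, SE 0.09, adjusted p = 2.54e-04), and the ATPase PSMC2 at 103, 98.2 and 101 CPM with siBRPF1, against 65.4, 67.9 and 61.6 CPM with siControl (log2 fold change 0.63, SE 0.08, adjusted p = 3.02e-04). PSMD1, the largest subunit of the regulatory particle's base, rose to 207, 199.6 and 211 CPM with siBRPF1, against 161, 142 and 147 CPM with siControl (log2 fold change 0.46, SE 0.08, adjusted p = 0.00191). No control library reached a knockdown library in these genes. The assembly chaperone PSMD10, described above, is no subunit of the finished complex and was not on this list.

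**Figure D3:**
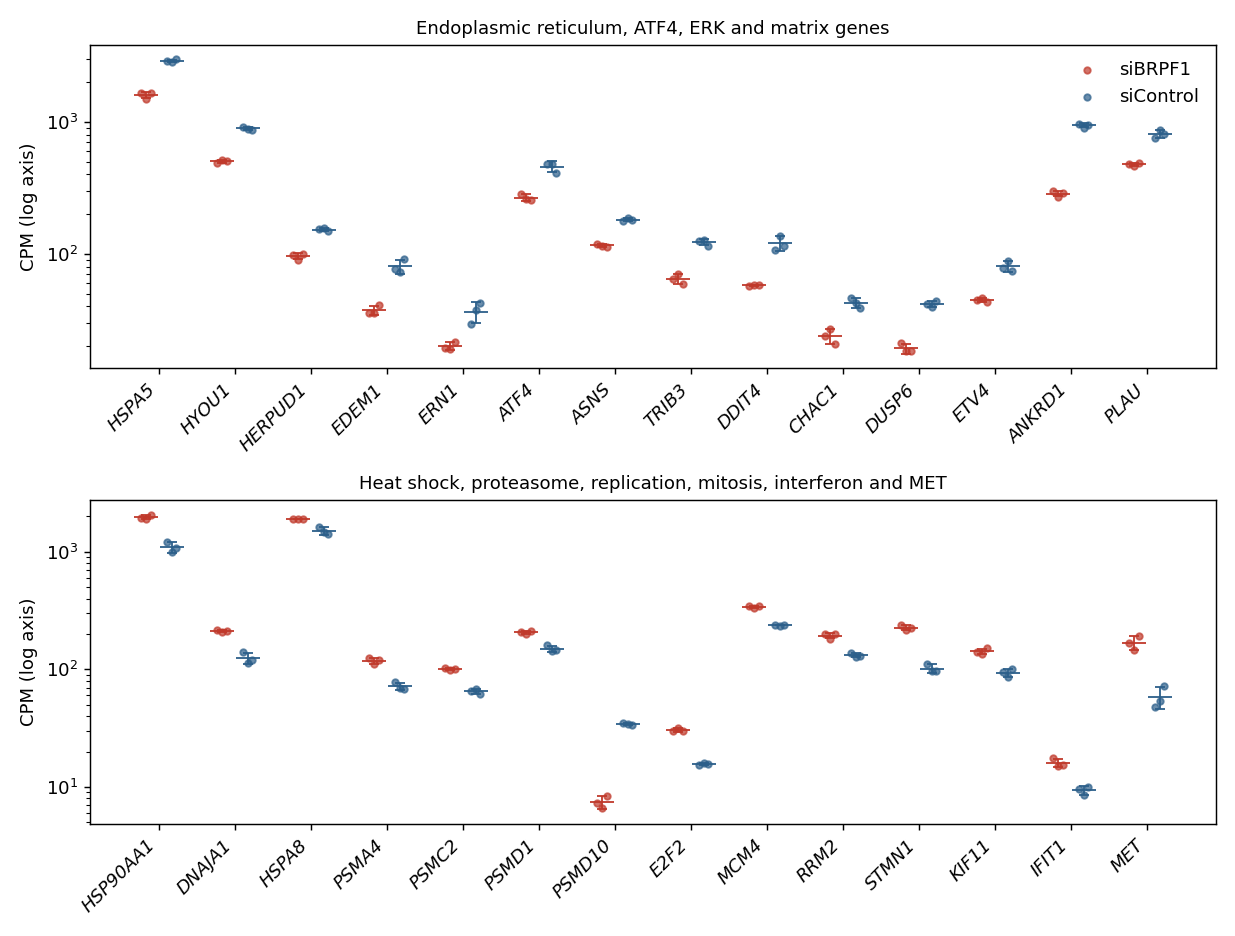
Normalised counts (CPM) on a log axis for named genes in each library, siBRPF1 left of siControl, with the mean ± SD. In the upper panel the ER, ATF4, ERK and matrix genes shown and the YAP target ANKRD1 are lower with siBRPF1. In the lower panel all genes shown except PSMD10 are higher. The genes are a selection: of the 24 YAP and TEAD genes tested, 5 rose and 4 fell.

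E2F factors switch on the enzymes of DNA synthesis at the entry to S phase. Of 28 E2F and replication genes tested, 20 rose and none fell, with a median of 0.36. E2F2, an activating E2F, was at 29.7, 31.9 and 29.7 CPM in siBRPF1 libraries, against 15.5, 15.9 and 15.6 CPM in siControl libraries (log2 fold change 0.96, SE 0.09, adjusted p = 5.14e-05). MCM4, part of the replicative helicase, was at 344, 329.7 and 345 CPM in siBRPF1 libraries, against 239, 236 and 238 CPM in siControl libraries (log2 fold change 0.51, SE 0.07, adjusted p = 5.37e-04), and RRM2, of ribonucleotide reductase, at 198, 182 and 198 CPM with siBRPF1, against 139, 127 and 131 CPM with siControl (log2 fold change 0.54, SE 0.08, adjusted p = 7.04e-04). The 2 groups were tight and separate in each. POLA1, the catalytic subunit of DNA polymerase alpha, rose to 33.01, 32.6 and 39.8 CPM with siBRPF1, against 24.1, 22.3 and 22.5 CPM with siControl (log2 fold change 0.61, SE 0.10, adjusted p = 0.00155). CCNE2 (0.63), GINS2 (0.59), TK1 (0.55) and TYMS (0.45) rose too. CDC6 (0.09), CDT1 (-0.07), E2F1 (0.14) and PCNA (0.10) were not called. Counted as TTTCCCGC or TTTGGCGC on both strands, E2F sites were present in 2.27% of promoter windows and in 4.54% of tested genes with a window. They were held by 14 of the 25 list members with a window, of which 8 rose, and 9 of the 11 others rose. The upstream sequences of E2F2 (chr1:23531234-23531483, minus strand) and GINS2 (chr16:85688955-85689204, minus strand), a subunit of the helicase's GINS complex, are given with the site in capitals.
E2F2: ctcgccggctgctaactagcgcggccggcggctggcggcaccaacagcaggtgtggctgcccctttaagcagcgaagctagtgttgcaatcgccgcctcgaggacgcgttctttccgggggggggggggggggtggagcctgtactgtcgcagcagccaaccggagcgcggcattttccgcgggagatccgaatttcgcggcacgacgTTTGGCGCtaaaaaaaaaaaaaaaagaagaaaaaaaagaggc
GINS2: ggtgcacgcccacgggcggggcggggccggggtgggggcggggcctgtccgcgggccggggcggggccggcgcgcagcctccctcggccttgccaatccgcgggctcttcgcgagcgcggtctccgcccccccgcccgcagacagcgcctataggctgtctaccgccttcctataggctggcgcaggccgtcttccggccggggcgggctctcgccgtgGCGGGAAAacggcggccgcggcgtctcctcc
The site ended 34 bases before the start in E2F2 and 23 in GINS2, where it was on the opposite strand.

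Of 28 mitotic genes tested, 10 rose and 2 fell, with a median of 0.24, and without siControl replicate 2 the rises numbered 6. With GC offsets they numbered 16. STMN1 (stathmin), which destabilises microtubules, was at 237, 217 and 224 CPM in siBRPF1 libraries, against 112, 96.5 and 95.98 CPM in siControl libraries (log2 fold change 1.15, SE 0.09, adjusted p = 1.59e-05), the largest change of the list. KIF11, the kinesin that separates spindle poles, rose to 140.2, 135 and 151 CPM with siBRPF1, against 94.01, 86.7 and 101 CPM with siControl (log2 fold change 0.60, SE 0.09, adjusted p = 7.16e-04), and CDC25B, a phosphatase that starts mitosis, to 235, 279 and 229 CPM with siBRPF1, against 158, 159 and 147 CPM with siControl (log2 fold change 0.68, SE 0.09, adjusted p = 4.64e-04). Their groups did not overlap. MAD2L1, the spindle checkpoint protein MAD2, fell to 30.5, 27.3 and 28.01 CPM with siBRPF1, against 46.01, 45.3 and 52.2 CPM with siControl (log2 fold change -0.74, SE 0.09, adjusted p = 3.10e-04). AURKA, a mitotic kinase, fell as well (-0.37). Of 21 tubulins and microtubule regulators, 6 rose and 3 fell. Without siControl replicate 2, 3 rose and 1 fell, and without siBRPF1 replicate 1, 2 rose and 1 fell. TUBA1A rose to 96.4, 108 and 95.03 CPM with siBRPF1, against 74.7, 73.9 and 63.1 CPM with siControl, the neuronal beta-tubulin gene TUBB3 by 0.36 (lost without siBRPF1 replicate 1) and STMN3 fell by 0.91, while the main isotypes TUBA1B (0.02) and TUBB (-0.10) were not called. Tubulin genes are close copies, and reads between them may be split.

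Of 22 CDK inhibitors and p53 targets (median 0.02), 4 rose (18.2%) and 5 fell (22.7%), beside 11.6% and 15.1% of all genes tested. Du145 carries mutant p53. CDKN1B (p27) fell to 21.99, 18.7 and 19.7 CPM with siBRPF1, against 33.7, 35.5 and 39.9 CPM with siControl (log2 fold change -0.85, SE 0.10, adjusted p = 2.34e-04), and MDM2, the ubiquitin ligase of p53, to 21.2, 22.2 and 24.6 CPM with siBRPF1, against 42.3, 39.7 and 52.01 CPM with siControl (log2 fold change -0.98, SE 0.12, adjusted p = 2.18e-04). SESN1 (0.74), PPM1D (0.52) and TP53I3 (0.60) rose. Without siControl replicate 2 the falls numbered 2, without any 1 siBRPF1 library they numbered 3, and 2 with DESeq2. Of 15 BCL2 family genes, 3 rose and 1 fell (1 rose without siBRPF1 replicate 1, 5 with GC offsets). MCL1, a survival protein, rose to 675, 647 and 692 CPM with siBRPF1, against 489.6, 499 and 515 CPM with siControl (log2 fold change 0.42, SE 0.07, adjusted p = 0.00188). The other two rises were of genes that promote cell death, the pore-forming effector BAK1 (0.37) and the BH3-only gene BCL2L11 (BIM, 0.37), and BMF, a BH3-only killer, fell to 5.63, 5.56 and 6.07 CPM with siBRPF1, against 7.49, 9.27 and 10.5 CPM with siControl (log2 fold change -0.66, SE 0.15, adjusted p = 0.00763).

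ERK signalling switches on a set of factors and its own inhibitors. Of 21 ERK output and feedback genes, 12 fell and 1 rose, with a median of -0.39. DUSP6, the phosphatase that inactivates ERK and is itself induced by it, was at 21.1, 18.2 and 18.3 CPM in siBRPF1 libraries, against 41.9, 39.3 and 44.1 CPM in siControl libraries (log2 fold change -1.12, SE 0.10, adjusted p = 3.43e-05). ETV4, an ETS factor downstream of ERK, was at 45.1, 46.1 and 42.9 CPM in siBRPF1 libraries, against 78.2, 88.8 and 73.9 CPM in siControl libraries (log2 fold change -0.85, SE 0.09, adjusted p = 1.32e-04). TGFA, a ligand of the EGF receptor, was at 6.72, 5.86 and 8.13 CPM with siBRPF1, against 13.9, 15.6 and 17.2 CPM with siControl (log2 fold change -1.17, SE 0.14, adjusted p = 2.43e-04). The knockdown libraries were lower without overlap in each. AREG, a further ligand, changed by -1.01 and EPHA2, an ephrin receptor, by -0.67, while DUSP4 (-0.04), SPRY1 (-0.14), SPRY2 (-0.24) and ETV5 (-0.18) were not called. Of 20 immediate-early and AP-1 genes, 9 fell and 4 rose (median -0.33). The rises numbered 1 without siControl replicate 2 or siBRPF1 replicate 1 and 2 without siBRPF1 replicate 2. FOS fell to 12.2, 10.6 and 11.5 CPM with siBRPF1, against 18.5, 20.7 and 23.4 CPM with siControl (log2 fold change -0.87, SE 0.11, adjusted p = 4.07e-04), and EGR1 to 82.6, 88.9 and 98.3 CPM with siBRPF1, against 147, 129 and 139.5 CPM with siControl (log2 fold change -0.62, SE 0.09, adjusted p = 7.13e-04). The orphan receptor NR4A1 fell too (-0.75). KLF2, a Krüppel-like factor, rose to 63.7, 66.01 and 59.8 CPM with siBRPF1, against 32.7, 32.2 and 28.9 CPM with siControl (log2 fold change 1.01, SE 0.09, adjusted p = 3.75e-05), against the direction of most of the list.

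Of 30 extracellular matrix and protease genes tested, 15 fell and 2 rose, with a median of -0.37, and without siBRPF1 replicate 1 the falls numbered 9. PLAU, urokinase, was at 484, 460.3 and 488 CPM in siBRPF1 libraries, against 761, 865 and 818 CPM in siControl libraries (log2 fold change -0.77, SE 0.08, adjusted p = 8.93e-05), and its receptor PLAUR at 164, 168 and 164 CPM with siBRPF1, against 237, 274 and 224 CPM with siControl (log2 fold change -0.57, SE 0.09, adjusted p = 0.00103). The protease and its receptor were lower in every knockdown library than in any control. LOX, the collagen crosslinking oxidase, changed by -1.09, while COL17A1 rose by 0.82. Of 24 YAP and TEAD targets and regulators (median 0.04), 4 fell (16.7%) and 5 rose (20.8%), beside 15.1% and 11.6% of all genes tested. The falls included the best known reporters. ANKRD1 fell to 298, 271 and 289.9 CPM with siBRPF1, against 972, 908 and 949.8 CPM with siControl (log2 fold change -1.72, SE 0.08, adjusted p = 1.01e-06). CCN1 (CYR61) fell to 543, 526 and 534 CPM with siBRPF1, against 891, 986 and 926 CPM with siControl and CCN2 (CTGF) to 132, 126 and 137 CPM with siBRPF1, against 202, 203 and 217 CPM with siControl, with log2 fold changes of -0.81 and -0.65. The coactivator gene WWTR1 (TAZ) rose to 225, 206 and 242 CPM with siBRPF1, against 129, 131 and 159 CPM with siControl (log2 fold change 0.69, SE 0.10, adjusted p = 7.40e-04). The rises in this list numbered 3 without siControl replicate 2 or siBRPF1 replicate 1 and 8 without siControl replicate 3.

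Of 23 NF-kB and inflammatory genes, 8 fell and 3 rose (median -0.23), with 5 falls without siControl replicate 2 and 4 without siBRPF1 replicate 1. CXCL8, the neutrophil chemokine, fell to 39.6, 37.5 and 45.5 CPM with siBRPF1, against 77.5, 82.1 and 81.3 CPM with siControl (log2 fold change -0.97, SE 0.09, adjusted p = 6.10e-05), and ICAM1, an adhesion receptor, to 139.7, 139.6 and 140.1 CPM with siBRPF1, against 218, 221 and 214 CPM with siControl (log2 fold change -0.64, SE 0.07, adjusted p = 1.68e-04). TNFAIP2 rose to 108, 111 and 93.4 CPM with siBRPF1, against 62.8, 67.8 and 62.6 CPM with siControl (log2 fold change 0.69, SE 0.09, adjusted p = 3.82e-04), and NFKB1 by 0.41. Of 22 interferon-stimulated genes tested, 8 rose, none fell and 14 were not called (median 0.32). The count was 4 without siControl replicate 2 or without siBRPF1 replicate 1, and 5 without siBRPF1 replicate 2. IFIT1, which binds foreign RNA ends, was at 17.5, 15.1 and 15.4 CPM in siBRPF1 libraries, against 9.55, 8.503 and 9.97 CPM in siControl libraries (log2 fold change 0.77, SE 0.11, adjusted p = 7.86e-04), and IFIT3 at 6.72, 5.80 and 6.53 CPM with siBRPF1, against 3.56, 3.72 and 3.52 CPM with siControl (log2 fold change 0.82, SE 0.14, adjusted p = 0.00179). The groups were apart but both low. RIGI, the RNA sensor, rose by 0.55, while IFIH1 (0.02) and OAS3 (0.12) were not called. Of 12 genes of RNA interference and double-stranded RNA sensing, 1 rose (DGCR8, 0.44) and 1 fell (XPO5, -0.40). Of 15 MHC class I genes, 5 fell and 2 rose (median -0.13). HLA-F fell to 5.68, 5.62 and 5.56 CPM with siBRPF1, against 11.4, 13.1 and 11.02 CPM with siControl (log2 fold change -1.08, SE 0.12, adjusted p = 1.82e-04). HLA-E (-0.54) and HLA-B (-0.46) fell, and the trimming peptidases ERAP1 (0.64) and ERAP2 (0.62) rose. Class I genes are similar in sequence, and their reads may be split.

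Of 27 growth factor receptors and ligands, 10 fell and 3 rose (median -0.17), with MET, given above, the largest rise. The rises numbered 1 without siBRPF1 replicate 1 or siBRPF1 replicate 3. The insulin receptor INSR fell to 16.4, 16.4 and 19.9 CPM with siBRPF1, against 29.2, 34.8 and 37.8 CPM with siControl (log2 fold change -0.95, SE 0.12, adjusted p = 3.19e-04), and MERTK, a TAM family kinase, to 23.5, 19.6 and 24.5 CPM with siBRPF1, against 36.5, 35.6 and 41.3 CPM with siControl (log2 fold change -0.75, SE 0.11, adjusted p = 6.66e-04). FGFR3, a fibroblast growth factor receptor, fell by 0.74 on the log2 scale.

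**Figure D4:**
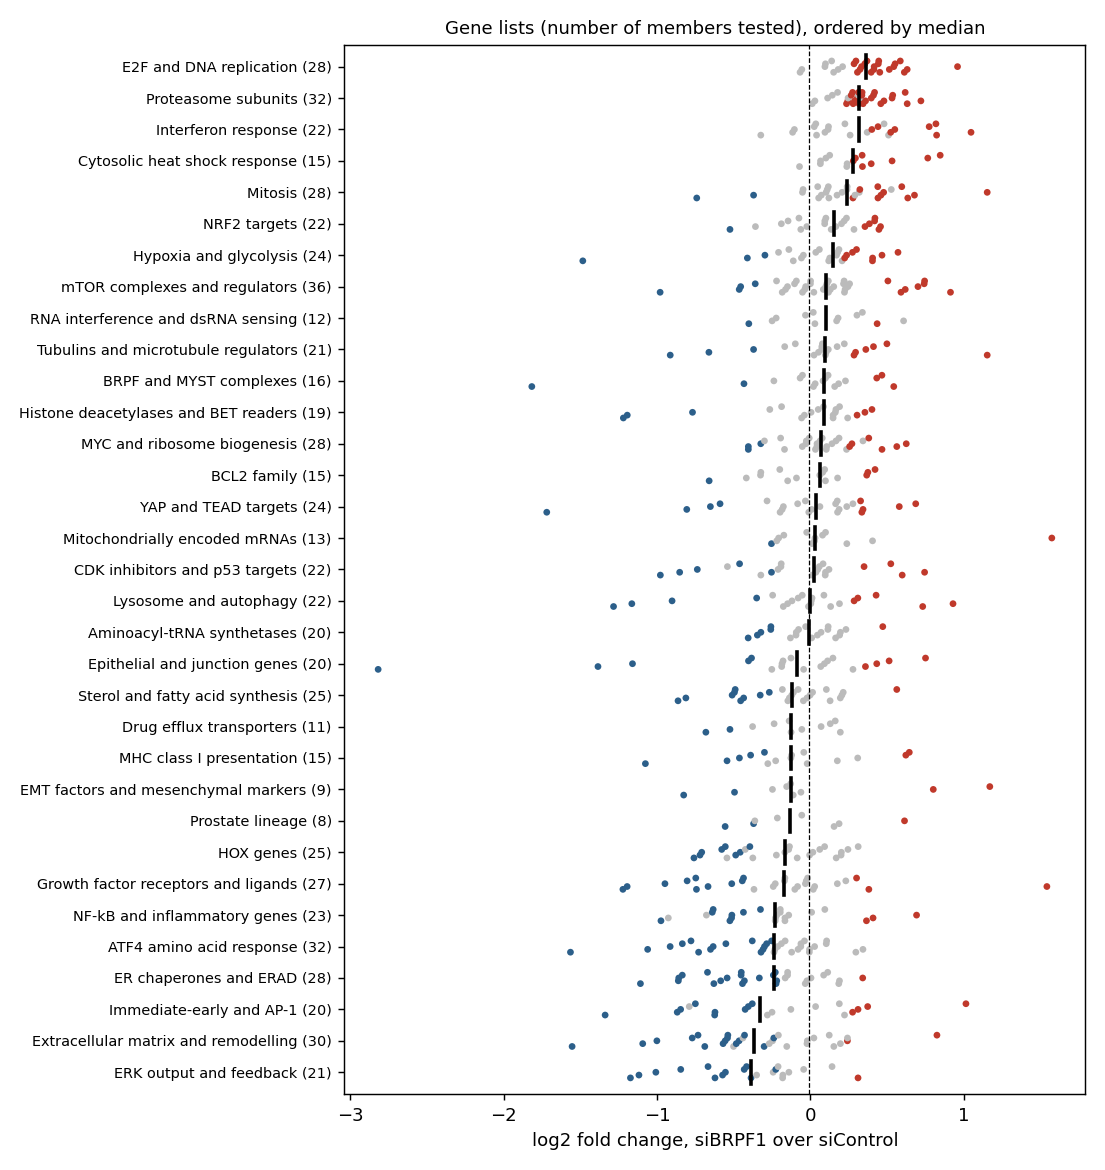
Log2 fold change of siBRPF1 over siControl for each tested member of 33 lists, ordered by their median (black bar). The lists were chosen with earlier results of these data known. Red points rose, blue points fell and grey points were not called at an adjusted p under 0.05. The dashed line is the median of all genes tested, -0.01. Medians run from -0.39 for ERK output to 0.36 for E2F and DNA replication.

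Of 19 histone deacetylases and BET readers, 3 rose (15.8%) and 3 fell (15.8%), beside 11.6% and 15.1% of all genes tested. Without siControl replicate 2, siBRPF1 replicate 1 or siBRPF1 replicate 3, 1 rose, and with GC offsets 6 rose and 5 fell. The class IIa enzyme HDAC5 fell to 19.9, 25.6 and 18.3 CPM with siBRPF1, against 43.1, 52.2 and 50.6 CPM with siControl (log2 fold change -1.19, SE 0.13, adjusted p = 1.27e-04), and HDAC3, the catalytic subunit of NCoR complexes, to 21.8, 24.8 and 21.5 CPM with siBRPF1, against 39.5, 40.3 and 36.3 CPM with siControl (log2 fold change -0.77, SE 0.09, adjusted p = 2.65e-04), while HDAC2 rose by 0.40. HOX genes are known targets of MYST acetyltransferases in mouse development. Of 25 tested, 8 fell and none rose (median -0.17), 5 without siControl replicate 2. HOXB9 fell to 56.4, 61.5 and 55.3 CPM with siBRPF1, against 99.9, 95.3 and 87.8 CPM with siControl (log2 fold change -0.71, SE 0.09, adjusted p = 2.61e-04), and HOXB6 to 54.4, 57.8 and 56.5 CPM with siBRPF1, against 87.8, 83.7 and 76.2 CPM with siControl (log2 fold change -0.55, SE 0.08, adjusted p = 9.25e-04). Of 20 epithelial and junction genes, 4 rose (20%) and 5 fell (25%), beside 11.6% and 15.1% of all genes tested. CDH1 (E-cadherin) was barely expressed, with 0.287, 0.777 and 0.458 CPM with siBRPF1, against 2.00, 4.55 and 4.22 CPM with siControl (log2 fold change -2.82, SE 0.40, adjusted p = 5.57e-04). It had 26 counts in all with siBRPF1 and 181 with siControl, and it passed the expression filter through siControl, where it was higher. The splicing regulator ESRP1 (-1.38) and the tight junction gene TJP3 (-1.16) fell, and KRT18 rose to 500.4, 486 and 423 CPM with siBRPF1, against 336, 256 and 245 CPM with siControl. Of 9 EMT genes tested, 2 rose and 2 fell. ZEB2, a repressor of CDH1, rose to 12.5, 11.4 and 14.03 CPM with siBRPF1, against 6.87, 6.44 and 8.44 CPM with siControl (log2 fold change 0.80, SE 0.14, adjusted p = 0.00191), and SNAI1 fell by 0.49.

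Of 25 sterol and fatty acid synthesis genes, 9 fell and 1 rose (median -0.12). DHCR7, the last enzyme of cholesterol synthesis, fell to 123, 130.3 and 119 CPM with siBRPF1, against 222, 247 and 209 CPM with siControl (log2 fold change -0.86, SE 0.09, adjusted p = 8.33e-05), as did MSMO1 (-0.81), whereas LSS rose by 0.56. Of 36 mTOR genes, 7 rose (19.4%) and 4 fell (11.1%), beside 11.6% and 15.1% of all genes tested. With GC offsets 12 rose. The falls numbered 1 without siControl replicate 2 and 2 without siControl replicate 1, siBRPF1 replicate 2 or siBRPF1 replicate 3. SESN3, a sestrin that restrains mTORC1, rose to 66.4, 51.5 and 72.2 CPM with siBRPF1, against 31.7, 32.7 and 36.6 CPM with siControl (log2 fold change 0.91, SE 0.12, adjusted p = 4.54e-04), RPTOR, of mTORC1, by 0.59 and its substrate kinase gene RPS6KB1 by 0.62. Of 28 MYC and ribosome biogenesis genes, 6 rose and 3 fell (10 rose with GC offsets). MYC fell to 233, 235 and 229.7 CPM with siBRPF1, against 322, 305 and 296 CPM with siControl (log2 fold change -0.40, SE 0.07, adjusted p = 0.0026), while NCL, nucleolin, rose to 561, 518 and 535 CPM with siBRPF1, against 402, 307 and 337 CPM with siControl (log2 fold change 0.62, SE 0.10, adjusted p = 0.00119). Of 24 hypoxia and glycolysis genes, 8 rose and 3 fell. LDHA, lactate dehydrogenase, was among the rises (0.47) and SLC2A1, a glucose transporter, among the falls (-0.41). Rises in that list numbered 3 without siControl replicate 2, 4 without siBRPF1 replicate 1 and 5 without siBRPF1 replicate 2 or siBRPF1 replicate 3. Of 22 NRF2 targets, 6 rose and 1 fell, with the quinone reductase NQO1 (0.42) and thioredoxin, TXN (0.45), among the rises. Of 22 lysosome and autophagy genes, 5 rose (22.7%) and 4 fell (18.2%), beside 11.6% and 15.1% of all genes tested. Without siControl replicate 2 or siBRPF1 replicate 1, 3 rose and 2 fell, and without siBRPF1 replicate 2, 3 rose. The autophagy receptor SQSTM1 rose by 0.73, and WIPI1 fell by 1.28. Of 13 mitochondrially encoded mRNAs, MT-ATP8 rose and MT-ND4L fell (-0.25), the second not called when any 1 library was left out.

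The 8 gene sets that the study drew from the Du145-DtxR and Du145-P libraries, which are not the libraries compared here, did not share a direction. Of 44 unfolded protein response genes, 18 fell and 9 rose (median -0.09), the falls led by DDIT4, ERN1, HSPA5 and HYOU1 and the rises by DDX10 (0.56) and SPCS3 (0.48). Without siControl replicate 2 the falls numbered 11 and the rises 5, and the rises also numbered 5 without siBRPF1 replicate 1. Of 58 mTORC1 signaling genes, 18 fell and 14 rose, with a median of -0.002 (8 rose without siControl replicate 2, 7 without siBRPF1 replicate 1, 9 without siBRPF1 replicate 3). Among them the ATF4 genes TRIB3 and ASNS fell and the proteasome genes PSMD12 (0.48) and PSMA3 (0.42) rose. Of 70 genes of MYC targets v1, 23 rose and 2 fell (median 0.16), with 8 rises without siControl replicate 2, 9 without siBRPF1 replicate 1 and 10 without siBRPF1 replicate 3. CCT3, of the chaperonin TRiC, rose to 723, 702 and 707 CPM with siBRPF1, against 502, 474 and 465 CPM with siControl (log2 fold change 0.57, SE 0.07, adjusted p = 3.43e-04). Of 31 genes of MYC targets v2, 3 rose and 3 fell (5 rose without siBRPF1 replicate 2, 8 with GC offsets). GRWD1, a ribosome assembly factor, rose by 0.95. Of 53 E2F targets, 17 rose and 7 fell (median 0.21), and of 44 G2M checkpoint genes 17 rose and 5 fell (median 0.25). CDC25A, the phosphatase that activates CDK2, rose to 51.5, 54.5 and 54.4 CPM with siBRPF1, against 39.2, 34.3 and 33.2 CPM with siControl (log2 fold change 0.59, SE 0.09, adjusted p = 9.75e-04). Rises among the E2F targets numbered 8 without siControl replicate 2, 7 without siBRPF1 replicate 1 and 11 without siBRPF1 replicate 3, and falls 4 without siControl replicate 2 or siBRPF1 replicate 1. Rises in the G2M set numbered 8 without siControl replicate 2 or siBRPF1 replicate 1 and 9 without siBRPF1 replicate 3, and leaving out any 1 library gave 2 or 3 falls. Of 37 TNFA signaling genes, 14 fell and 5 rose (median -0.14), and of 27 inflammatory response genes 9 fell and 2 rose (median -0.15). In the TNFA set 9 fell without siBRPF1 replicate 1, and the rises numbered 2 without that library or siControl replicate 2 and 3 without siBRPF1 replicate 3. TNFRSF9 (-0.91), a TNF family receptor, and CD70 (-0.61), a TNF family ligand, fell.

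The design also asks whether silencing BRPF1 moves the transcripts that set resistant cells apart from parental ones. Of 18218 genes tested between the resistance libraries, Du145-DtxR had 1206 DEGs above Du145-P (6.62%) and 2507 below it (13.8%). These 2 experiments share no library, and each was normalised on its own. Of the 15596 genes tested in both, 15% fell and 11.6% rose with siBRPF1. Of the 990 higher in Du145-DtxR, 167 fell (16.9% of them, and 7.12% of all that fell) and 123 rose (12.4%), with a median of -0.02.

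Of the 1666 genes that were lower in resistant cells, 627 fell with siBRPF1 (37.6% of them, and 26.7% of all that fell) and 54 rose (3.24%, and 2.98% of all that rose), with a median of -0.39. Among genes in neither group, 12% fell and 12.6% rose. The lower genes were weakly expressed, with a median of 3.92 CPM in the siRNA libraries against 20.4 CPM over all genes tested in both. The shares were also taken within bands of level, without a test of the difference. Under 5 CPM 32.7% of them fell, against 9.79% of genes not called between the lines, at 5 to 20 CPM 44.2% against 13.9%, at 20 to 100 CPM 43.5% against 12.2%, and above 100 CPM 44.4% of only 27 genes against 11.8%. The share over all levels was 39.2% with GC offsets, 27.9% with DESeq2, and between 25.4% (without siControl replicate 2) and 35.4% when 1 library was left out. Of the 15 largest falls named above, 7 were DEGs below Du145-P in the resistant line, and none was above it. Of all 502 DEGs that fell and were tested in both experiments, 265 were below it and 32 above. The 7 of 15 are near that share and show nothing particular to the largest falls. PADI2 was at 1.42 ± 0.135 CPM in Du145-DtxR and 18.6 ± 0.512 CPM in Du145-P (SD, n = 2 each), NGFR at 0.589 ± 0.102 CPM in Du145-DtxR and 4.59 ± 0.674 CPM in Du145-P (SD, n = 2 each) and PCDH1 at 0.369 ± 0.0535 CPM in Du145-DtxR and 3.43 ± 0.0284 CPM in Du145-P (SD, n = 2 each). Each of these was lower in the resistant line in that experiment and fell with siBRPF1 in the other. Levels differed between the experiments. With siControl, NGFR averaged 8.37 CPM and PCDH1 6.26 CPM, above both lines without siRNA, and PADI2 averaged 10.8 CPM, between them. The tables were normalised separately, but the TMM factors of all libraries lay between 0.9623 and 1.029. The cause of these differences was not tested.

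**Figure D5:**
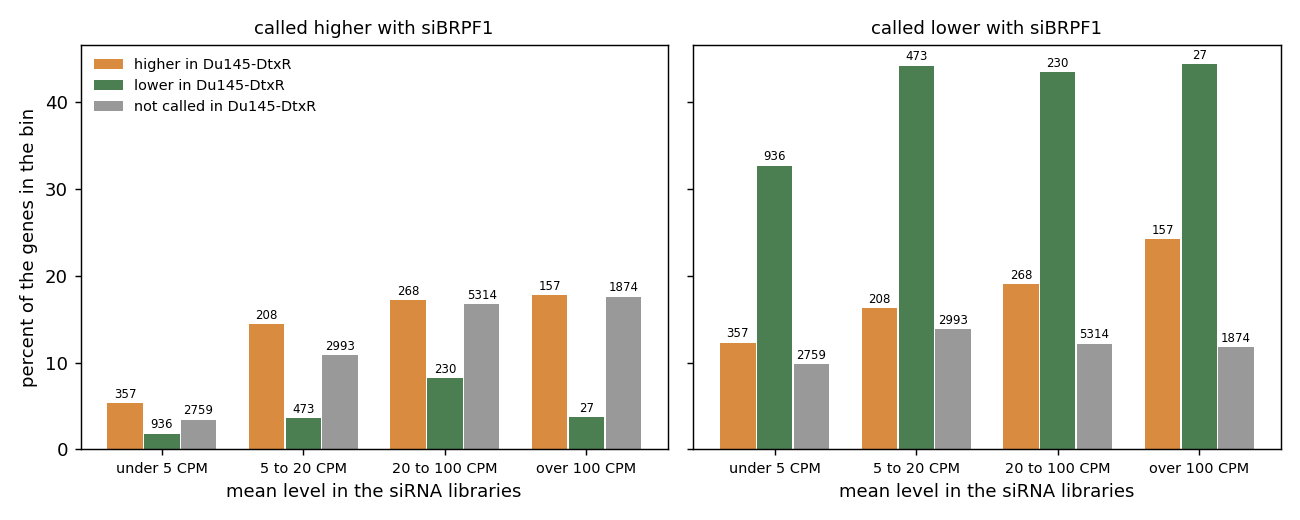
Percent of genes that rose (left) or fell (right) with siBRPF1, in 4 bands of mean level in the siRNA libraries, for genes higher in Du145-DtxR than Du145-P, lower in it, or in neither group. The number above a bar is the number of genes. Of the genes lower in Du145-DtxR, 32.7% under 5 CPM and 44.4% above 100 CPM fell, against 9.79% and 11.8% of genes in neither group.

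Among genes that were higher in Du145-DtxR and fell, the 10 largest falls were led by MIR100HG, the host transcript of a microRNA cluster, which fell to 13.9, 12.1 and 12.6 CPM with siBRPF1, against 39.3, 41.3 and 48.5 CPM with siControl (log2 fold change -1.74, SE 0.11, adjusted p = 7.11e-06) and had a log2 fold change of 3.73 between Du145-DtxR and Du145-P. ANKRD1, TGFA and DUSP6, given above, were among the 10, with resistance log2 fold changes of 3.35, 1.02 and 1.42. IL12A, a cytokine subunit, fell to 10.7, 9.81 and 11.2 CPM with siBRPF1, against 22.7, 25.6 and 22.5 CPM with siControl (log2 fold change -1.16, SE 0.10, adjusted p = 4.30e-05). LRRC15 (-1.48), the microtubule plus-end protein gene SLAIN1 (-1.42), SLFN5 (-1.13) and the clock repressor BHLHE41 (-1.11) were also among them. HSPA5, HYOU1 and HERPUD1 had resistance log2 fold changes of 2.84, 1.92 and 2.76 and fell by less than 1 with siBRPF1. Among genes that were lower in Du145-DtxR and rose with siBRPF1, NTN1 (netrin-1, a ligand of the UNC5 receptors) rose to 42.9, 47.9 and 44.3 CPM with siBRPF1, against 19.4, 20.7 and 21.6 CPM with siControl (log2 fold change 1.13, SE 0.09, adjusted p = 2.05e-05) and had a resistance log2 fold change of -1.40. DNMT3B, a de novo DNA methyltransferase, rose to 13.2, 12.1 and 10.7 CPM with siBRPF1, against 5.62, 6.61 and 5.04 CPM with siControl (log2 fold change 1.06, SE 0.14, adjusted p = 4.25e-04). SLC45A4 (0.91), HEXIM1, an inhibitor of P-TEFb (0.79), the metallothionein MT1F (0.76) and IFIT1, IFIT2 (0.82) and IFIT3 were also among the 10 largest rises, with 2 genes listed by identifier alone.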

How the data were processed

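Bulk RNA sequencing of 6 Du145-DtxR libraries was analysed, 3 with siBRPF1 and 3 with siControl. The authors deposited estimated counts per gene (expected counts), made from aligned reads. The submitters' processing notes name STAR, Salmon, DESeq2 and GRCh38, and versions are not given in the sources used here. Of the deposited values above 0, 62.8% were whole numbers. They were rounded here, and 44 rows of the Y copy of the pseudoautosomal region were added to their X copies, leaving 60616 genes. Symbols were as in GENCODE release 44.

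Genes were kept with filterByExpr (minimum count 10), scaled by TMM and tested with the quasi-likelihood test of edgeR 4.0.16 in R 4.3.3, with Benjamini-Hochberg adjustment over 15704 genes. An adjusted p under 0.05 was a call, and a log2 fold change beyond 1 made it a DEG. The resistance table (2 libraries each of Du145-DtxR, Du145-CbzR and Du145-P, fitted together) was fitted separately over 18218 genes. Du145-DtxR was then compared with Du145-P. Scripts were tested on simulated data. Alternatives were DESeq2 1.42.0, other scalings, filters and thresholds, a replicate block, leaving out each library, and, added after seeing the data, GC offsets in 20 bins. Figures were drawn with matplotlib 3.10.9 in Python 3.11.15.

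The gene lists and their members were chosen with earlier results of these data known, whereas the libraries were chosen by label. Genes named were all tested members of the BRPF and efflux lists, and up to 5 members of each list by adjusted p. The 15 largest DEG changes in each direction were also named (at least 5 CPM in the higher group, groups not overlapping). So were the 10 largest falls and 10 largest rises against the resistance direction. A further 45 were named after their values were seen. Some genes the rule selects are not reported here. Totals of 16667822 to 17306275 estimated counts limit precision for genes under 5 CPM.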

Additional observations from a re-analysis of the deposited data

How the results depend on the processing

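Of the 282 genes with alternatives computed, none reversed a call. The most calls were lost at an adjusted p under 0.01 (20), without siControl replicate 2 (17) and without siBRPF1 replicate 1 (17). At that threshold 766 genes rose and 1296 fell, 46 DEGs rose, 88 genes higher in Du145-DtxR fell and 25 lower in it rose. With no filter beyond a total above 0, 138 DEGs rose. With a log2 fold change beyond 1 asked in both experiments, the numbers against the resistance direction were 32 falls and 11 rises. Leaving out 1 library at a time gave 935 to 1988 rises, 1468 to 2412 falls, 64 to 106 DEGs that rose, 410 to 580 DEGs that fell, 110 to 162 falls among genes higher in Du145-DtxR and 35 to 60 rises among genes lower in it. The cause was not tested. Genes under 5 CPM limit what depth can show.

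The replicate numbers were not taken to pair the libraries. Deviations of libraries with the same number correlated at 0.06, 0.17 and 0.34, and siBRPF1 replicate 2 correlated best with siControl replicate 1 (0.20). With a replicate block 3193 genes rose and 3408 fell, and 90 genes lower in Du145-DtxR rose. With the replicate block and GC offsets together, 3420 genes rose and 83 of those lower in Du145-DtxR rose. With upper-quartile scaling the rises numbered 3 in the YAP list (5 with TMM), 5 in the hypoxia list (8 with TMM), 3 in the lysosome list (5 with TMM) and 13 in the study's MYC targets v1 list (23 with TMM).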

Other observations

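The ligand gene NTN1 rose and the netrin receptor gene UNC5A fell with siBRPF1, and both lay below Du145-P in the resistant line. Levels in Du145-DtxR are set side by side across the 2 experiments, whose tables were normalised separately, with no test. ABCB1 averaged 171 CPM with siControl and 454 CPM in Du145-DtxR without siRNA, and HSPA5 averaged 2904 CPM with siControl and 5273 CPM in Du145-DtxR without siRNA. Other genes were higher with siControl: UNC5A averaged 12.3 CPM with siControl and 1.33 CPM in Du145-DtxR without siRNA, NGFR 8.37 and 0.589 CPM, PCDH1 6.26 and 0.369 CPM, PADI2 10.8 and 1.42 CPM, and SNAI1 25.3 and 3.98 CPM.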
